A study of Mus musculus with 4 samples.

Results

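Chemokine and chemokine receptor genes were taken from the table of merged ChIP-seq regions by symbol (Ccl, Cxcl, Cx3cl, Xcl, Ccr, Cxcr, Cx3cr, Xcr or Ackr followed by a digit), and 44 of the 17640 genes listed there matched. For each gene the region with its middle closest to the transcription start was used, 41 regions of 29210 in all. The signal is the average density of fragments precipitated by an antibody to propionylated lysine 23 of histone H3 (H3K23), a charge-neutralising acylation found in active chromatin. The set was proposed with the signals of these libraries already known, so the counts and medians of the members are given as descriptions and without a test.

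All mice were C57Bl/6J males of 12 weeks, and chromatin of 3 pooled hearts made 1 library per group. The groups were BCAA-free diet (no branched-chain amino acids) with transverse aortic constriction (TAC, a surgery that narrows the aorta and loads the left ventricle), BCAA-free diet with sham surgery, BCAA-control diet with TAC and BCAA-control diet with sham surgery. Feeding started 4 days ahead of the operation, and the hearts were harvested 1 week after it. With 1 library per group there is no replicate error, so "higher" and "lower" compare libraries, and intervals given in parentheses are 95% intervals of counting error only. No input library was used here, and the scaling between libraries was not stated in the sources.

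Chemokines are small secreted proteins that direct leukocyte migration by binding G protein-coupled receptors. The CC and CXC families are named for the spacing of their first cysteines, and the atypical receptors bind chemokines without coupling to G proteins. In the pressure-loaded heart, CCL2 and its receptor CCR2 are known for drawing in monocytes, CXCR3 and its ligands for T cell entry, and CXCL12 with CXCR4 for retention of progenitors and leukocytes. Many of these genes lie in clusters. Here 11 Ccl genes lay between positions 82018400 and 83665399 of chromosome 11 and 6 Cxcl genes between 90756200 and 92379999 of chromosome 5 (mm10), and 7 receptor genes lay together on chromosome 9.

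Members differed from the other genes in the kind of region they had. A CpG island lay in the region of 11 of 44 members (25.0%), against 72.8% of all genes, and 39 members (88.6%) had a region with an annotated promoter, against 92.3% of all genes. The middle of the region lay within 2500 bases of the start for 13 members (29.5%), against 52.2% of all genes. Regions were 800 to 64400 bases long (median 10000), and 25 members were listed with another gene in their region, so that the ratio of such a region cannot be assigned to a single gene. Ccl2, Ccl7 and Ccl11 shared 1 region of 64400 bases, and Ccl24 and Ccl26 shared another. The estimated number of tags per member region ranged from 14.3 to 2384, with medians of 276 to 358 in the 4 libraries. RefSeq (GRCm38.p6) holds 67 genes whose symbols match the rule, and no region in the table used here lists 23 of these symbols (2 of the genes are listed under older symbols). Among the 23 are the neutrophil receptors Cxcr1 and Cxcr2, the T cell receptors Ccr4 and Ccr8, and Ccl19, Ccl20, Cxcl13 and Xcl1. The atypical receptor gene Ackr3 is listed under its older symbol Cxcr7.

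Starts of 29 members were found in RefSeq promoter records of GRCm38.p6, and for all 29 the distance between region and start in the deposited table was met within 50 bases. The 250 bases before the start overlapped the member's region in 23 of the 29. Those of the genes on which the results below turn are printed 5′ to 3′ on the gene's strand. Capitals mark matches to 6 motifs, searched on both strands. Besides the NF-kB consensus, AP-1 was searched for as TGANTCA. The STAT motif was searched for as TTCNNNGAA. The PU.1 motif, bound by a myeloid transcription factor, was searched for as GAGGAAG. The interferon response element was searched for as GAAANNGAAA, and the TATA box as TATAAA. Ccl3 (chr11:83649379-83649628, minus strand) and Cxcr3 (chrX:101734148-101734397, minus strand) are shown for their high ratios of TAC over sham, and Ccl8 (chr11:82114935-82115184, plus strand) for opposite ratios on the 2 diets.
Ccl3: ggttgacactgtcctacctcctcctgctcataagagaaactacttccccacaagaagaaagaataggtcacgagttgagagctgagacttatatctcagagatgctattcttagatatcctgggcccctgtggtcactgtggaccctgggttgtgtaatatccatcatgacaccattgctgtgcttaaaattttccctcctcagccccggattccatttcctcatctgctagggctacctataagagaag
Cxcr3: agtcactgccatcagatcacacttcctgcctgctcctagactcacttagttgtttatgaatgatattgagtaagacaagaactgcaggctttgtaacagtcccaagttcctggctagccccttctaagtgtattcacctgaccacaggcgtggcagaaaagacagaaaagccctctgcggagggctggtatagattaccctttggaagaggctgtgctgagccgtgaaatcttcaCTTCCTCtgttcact
Ccl8: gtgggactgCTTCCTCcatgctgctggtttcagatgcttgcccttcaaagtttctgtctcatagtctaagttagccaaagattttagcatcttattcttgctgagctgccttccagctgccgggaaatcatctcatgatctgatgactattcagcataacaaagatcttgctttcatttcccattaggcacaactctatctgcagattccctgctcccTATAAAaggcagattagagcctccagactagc
The windows hold 2 CpGs in Ccl3, 3 in Cxcr3 and 1 in Ccl8. Capitals in Cxcr3 and the first capitals in Ccl8 are the PU.1 motif on the opposite strand, the later ones in Ccl8 are the TATA box, and Ccl3 holds none of the 6 motifs in this window.

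Cxcr4 (chr1:128592300-128592549, minus strand) and Cxcl12 (chr6:117168285-117168534, plus strand) are shown as a receptor and its ligand with opposite TAC ratios on the control diet.
Cxcr4: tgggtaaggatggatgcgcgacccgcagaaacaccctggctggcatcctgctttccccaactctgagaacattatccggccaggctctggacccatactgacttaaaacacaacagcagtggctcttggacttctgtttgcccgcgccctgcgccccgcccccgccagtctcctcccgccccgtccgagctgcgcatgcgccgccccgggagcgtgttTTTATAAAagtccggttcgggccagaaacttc
Cxcl12: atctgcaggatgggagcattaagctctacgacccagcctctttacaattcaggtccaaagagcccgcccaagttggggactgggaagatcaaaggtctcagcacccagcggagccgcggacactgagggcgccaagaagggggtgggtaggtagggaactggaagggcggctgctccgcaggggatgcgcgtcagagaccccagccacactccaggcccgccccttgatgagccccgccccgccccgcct
These windows hold 19 CpGs in Cxcr4 and 14 in Cxcl12. In Cxcr4 the TATA box matched on both strands with overlap, and Cxcl12 holds none of the 6 motifs in this window.

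Cxcl10 (chr5:92348890-92349139, minus strand) and Cxcl2 (chr5:90903649-90903898, plus strand), 2 chemokines known to be induced through NF-kB, are shown for their motif matches.
Cxcl10: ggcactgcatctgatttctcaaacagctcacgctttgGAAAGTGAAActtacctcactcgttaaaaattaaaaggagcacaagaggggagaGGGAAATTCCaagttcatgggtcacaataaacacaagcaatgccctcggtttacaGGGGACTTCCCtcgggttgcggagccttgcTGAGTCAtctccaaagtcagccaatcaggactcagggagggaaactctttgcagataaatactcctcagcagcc
Cxcl2: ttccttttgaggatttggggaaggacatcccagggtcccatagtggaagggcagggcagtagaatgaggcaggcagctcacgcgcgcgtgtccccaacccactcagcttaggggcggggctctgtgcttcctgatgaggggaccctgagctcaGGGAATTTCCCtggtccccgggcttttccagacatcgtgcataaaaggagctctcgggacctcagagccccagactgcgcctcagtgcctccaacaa
In Cxcl10 the capitals are, from the 5′ end, the interferon response element, NF-kB in 2 places (overlapping matches in the later one) and AP-1, and in Cxcl2 overlapping NF-kB matches. The NF-kB consensus matched in 7 of 29 member windows (24.1%: Ccl1, Ccl9, Ccr1, Ccr3, Cxcl1, Cxcl2 and Cxcl10), against 7.01% of 27025 RefSeq promoter windows of the same length. The TATA box matched in 27.6% of member windows against 13.0% of all, PU.1 in 13.8% against 10.4%, AP-1 in 10.3% against 6.87%, STAT in 10.3% against 7.18% and the interferon response element in 6.90% against 3.04%. The median number of CpGs was 4 in member windows and 6 in all windows.

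The first comparison was TAC over sham within each diet. Ratios are log2((A + 1)/(B + 1)) of the average signal, and a gene was called past 1.5-fold (0.58 on this scale), a rule of size. On the BCAA-free diet 4 of 44 members were higher past 1.5-fold in TAC (9.09%, against 0.850% of all genes) and 1 was lower (2.27%, against 0.680% of all genes). On the control diet 9 members were higher (20.5%, against 2.82% of all genes) and 0 were lower (against 2.10% of all genes). The median ratio of the members was 0.12 on the BCAA-free diet (all genes -0.03) and 0.35 on the control diet (all genes 0.05). Among genes with no CpG island in their region, 3 of 33 members were higher and 1 lower in BCAA-free TAC (against 2.31% and 2.23% of 4804 such genes), and in control TAC 8 were higher and 0 lower (against 7.70% and 6.20%). The set was chosen with these values known, so nothing is read from the counts. Of the members higher past 1.5-fold, some had no peak call in either sham library. These were Ccl22, Ccl28 and Cxcr3 on the BCAA-free diet and Ccl3, Ccl4, Ccl5, Ccr2 and Cxcr3 on the control diet. Of the 17 members with a mean signal at or above the median of all regions, 0 were higher on the BCAA-free and 3 on the control diet.

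Markers of the cell types of the heart were set beside these ratios. Of 12 macrophage markers, 11 had a region, in 9 separate regions because C1qa, C1qb and C1qc share 1. With each region counted once, 1 region was higher past 1.5-fold in TAC on the BCAA-free diet and 5 on the control diet, with medians of 0.26 and 0.61. The summed signal of the 9 macrophage regions was 87.3 in BCAA-free TAC and 70.1 in BCAA-free sham, and 108 in control TAC and 71.6 in control sham. T cell markers, 6 of 8 in 5 regions, had medians of 0.17 and 0.22, with 0 and 1 region higher past 1.5-fold (that of Cd3d and Cd3g). Of 8 neutrophil markers only Csf3r and Elane had a region, and none of S100a8, S100a9, Mpo, Ly6g, Retnlg and Camp was listed. B cell markers had medians of 0.09 and 0.15, dendritic cell markers 0.16 and 0.38, and markers of lymphatic endothelium 0.06 and 0.14. The labelled tissue is heart, and all 8 cardiomyocyte markers had a region. Of these, 0 and 4 were lower past 1.5-fold (against 0.680% and 2.10% of all genes), and the medians were -0.24 and -0.57. Fibroblast markers had -0.14 and 0.19, and endothelial markers -0.08 and -0.18. In whole hearts, more cells of a type and more signal per cell cannot be told apart, and the part of cell makeup in the member ratios was not tested.

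**Figure D1:**
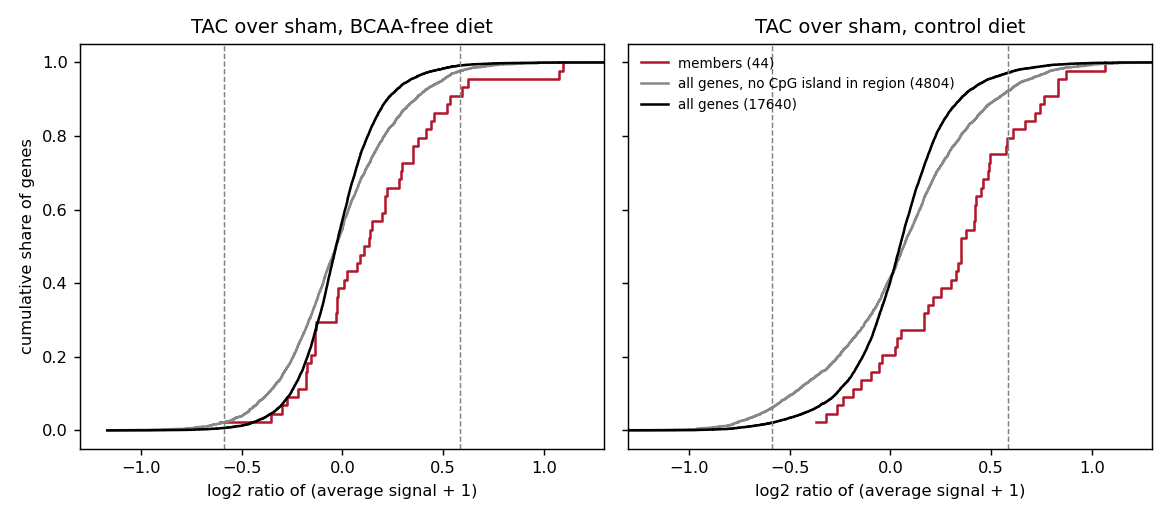
Cumulative share of genes (vertical axis) by log2 ratio of TAC over sham (horizontal axis) on the BCAA-free diet (left) and the control diet (right), for the 44 members, the 4804 genes with no CpG island in their region and all 17640 genes; dashed lines mark 1.5-fold. The member curve lies to the right of both others over most of its length, with medians of 0.12 on the BCAA-free diet and 0.35 on the control diet.

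Among the ligands and receptors of inflammatory monocytes and macrophages, signal was higher in TAC at most genes, and by more on the control diet. Ccl3, a ligand of CCR1 made by activated macrophages and T cells, had an average signal of 6.02 in BCAA-free TAC and 5.14 in BCAA-free sham, and of 8.59 in control TAC and 3.58 in control sham. Control TAC was thus the highest of the libraries and control sham the lowest, and the ratio was 0.19 (-0.19 to 0.57) on the BCAA-free diet and 1.07 (0.68 to 1.45) on the control diet, the highest of all members there. Its region spans 3200 bases at the gene (chr11:83646800-83649999). The region upstream of the neighbouring Ccl4, which encodes a related attractant of macrophages and T cells and also lists Ccl3, had a signal of 4.26 in BCAA-free TAC and 2.88 in BCAA-free sham, and of 5.86 in control TAC and 2.85 in control sham. The sham libraries were close to each other there, and the ratios were 0.44 (0.18 to 0.70) on the BCAA-free diet and 0.83 (0.58 to 1.08) on the control diet.

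Ccl5, which encodes a T cell and monocyte attractant, had 5.91 in BCAA-free TAC and 4.64 in BCAA-free sham, and 7.26 in control TAC and 4.03 in control sham, with ratios of 0.29 and 0.72. Ccl9, a CCR1 ligand of mice, had 9.78 in BCAA-free TAC and 7.45 in BCAA-free sham, and 11.8 in control TAC and 6.58 in control sham, with ratios of 0.35 (0.25 to 0.46) and 0.76 (0.66 to 0.87). In Ccl5 and Ccl9 both TAC libraries lay above both sham libraries. The adjoining Ccl6 had ratios of 0.22 on the BCAA-free and 0.49 on the control diet. Their receptor gene Ccr1 had 0.41 (-0.09 to 0.92) and 0.34 (-0.19 to 0.86) in a short region with 31.5 to 49.1 estimated tags per library, too few to separate the libraries. A region of 35200 bases that lists Ccr1, downstream of its start, had 0.34 (0.24 to 0.43) on the BCAA-free diet and 0.57 (0.47 to 0.66) on the control diet.

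The receptor gene Ccr2, which marks monocytes recruited from blood, had a signal of 3.96 in BCAA-free TAC and 2.46 in BCAA-free sham, and of 5.07 in control TAC and 2.41 in control sham. Both sham libraries were equally low, and the ratios were 0.52 (0.28 to 0.75) on the BCAA-free and 0.83 (0.61 to 1.06) on the control diet. This region is 12000 bases long and lists more than 1 gene.

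Ligand genes of the monocyte chemoattractant family did not follow one pattern. Ccl12, a mouse CCR2 ligand, had 8.69 in BCAA-free TAC and 5.69 in BCAA-free sham, and 9.73 in control TAC and 5.42 in control sham, with ratios of 0.53 (0.37 to 0.70) and 0.74 (0.57 to 0.91). The region shared by Ccl2, Ccl7 and the eotaxin gene Ccl11 (chr11:82018400-82082799) had 6.04 in BCAA-free TAC and 6.74 in BCAA-free sham, and 6.40 in control TAC and 4.81 in control sham. Control sham was the lowest library there, and the ratio was -0.14 (-0.22 to -0.06) on the BCAA-free diet and 0.35 (0.27 to 0.44) on the control diet. Ccl8, another member of the monocyte chemoattractant family, had 4.35 in BCAA-free TAC and 7.14 in BCAA-free sham, and 6.35 in control TAC and 3.94 in control sham. BCAA-free sham and control TAC were thus the high libraries of Ccl8, with ratios of -0.60 (-0.97 to -0.23) on the BCAA-free diet, the 1 member lower past 1.5-fold (0 with libraries scaled to the same median), and 0.57 (0.19 to 0.95) on the control diet, just short of the threshold. The second region that lists Ccl8 is that of Ccl12, where both ratios were positive.

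**Figure D2:**
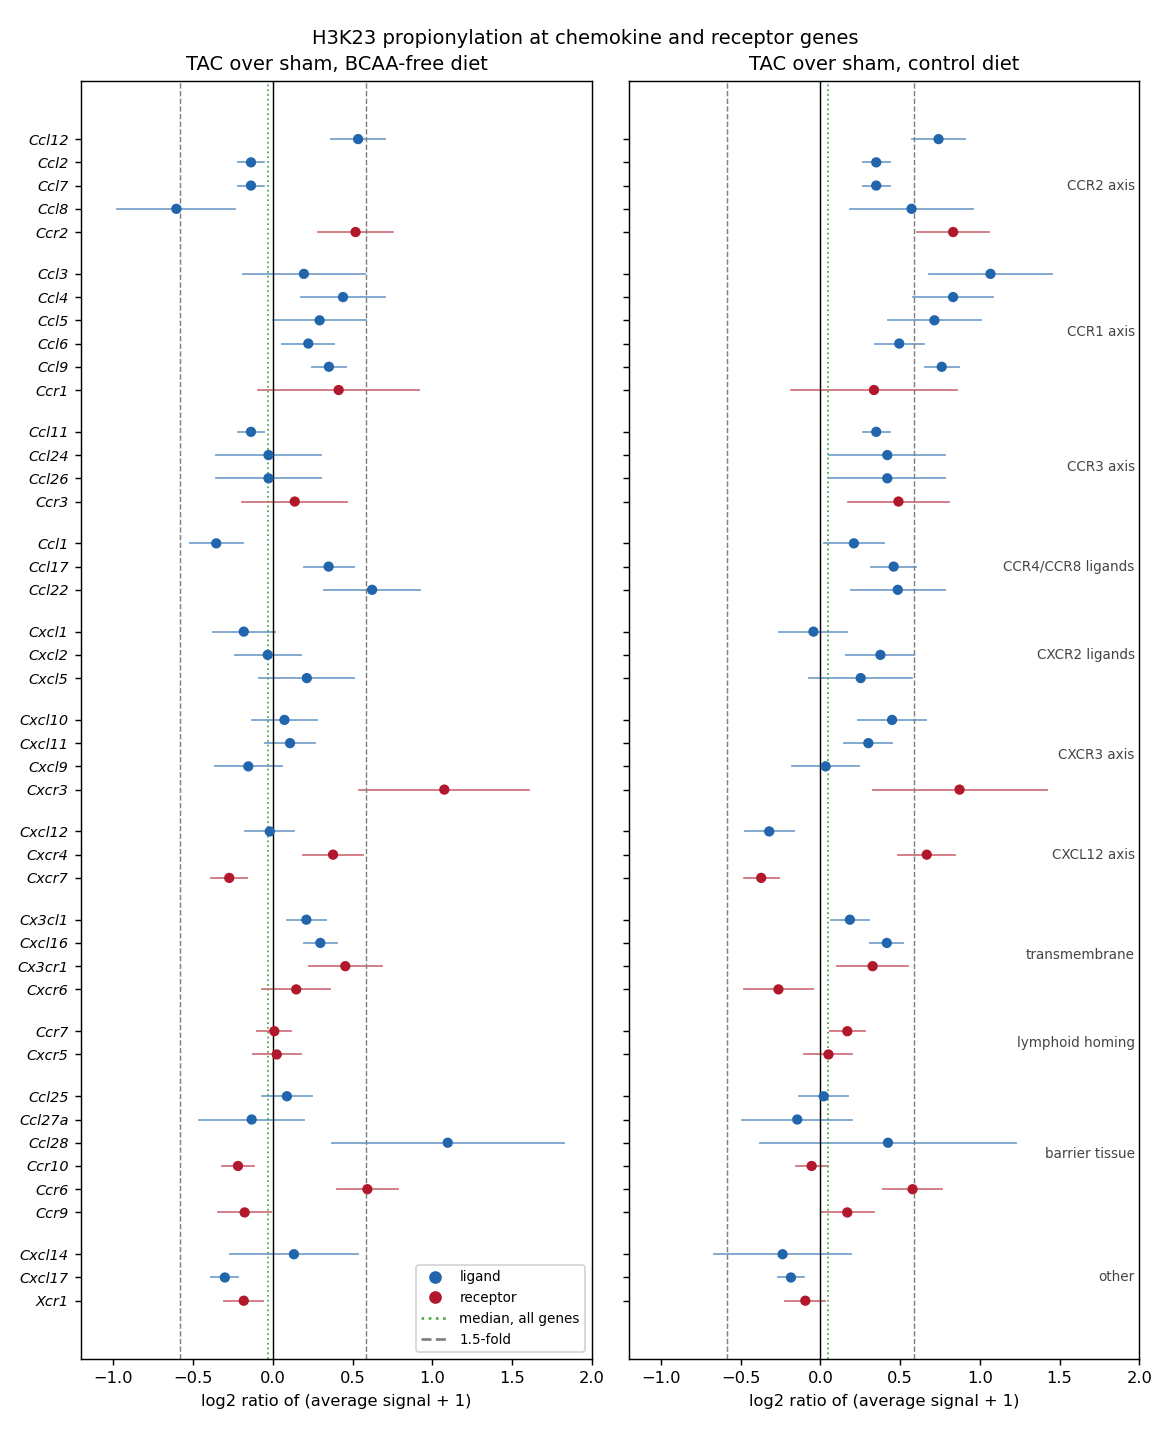
Log2 ratio of TAC over sham (horizontal axis) for 43 of the 44 members (rows, grouped by receptor axis) on the BCAA-free diet (left) and the control diet (right); points are ratios, lines 95% counting intervals, blue ligands, red receptors, with the median of all genes dotted and 1.5-fold dashed. Ccl3, Ccl4, Ccl5, Ccl6, Ccl9 and Ccr1 are among those above 0 on both diets. Cxcr7, Cxcl1, Cxcl17, Ccl27a, Ccr10 and Xcr1 lie below 0 on both. Cxcl12 lies below 0 on the control diet and at -0.02 on the BCAA-free diet.

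Cxcr3, the receptor of effector T cells, was past 1.5-fold on both diets. Its region of 2000 bases at the start (chrX:101733000-101734999) had 6.53 in BCAA-free TAC and 2.57 in BCAA-free sham, and 5.53 in control TAC and 2.57 in control sham. The sham libraries were equal and both TAC libraries stood well above them, in a region of 22.9 to 58.3 estimated tags, with ratios of 1.07 (0.54 to 1.61) and 0.87 (0.33 to 1.42). The only peak call of this region was in BCAA-free TAC. The genes of the interferon-induced ligands of CXCR3 stayed short of 1.5-fold. Cxcl10 had 6.72 in BCAA-free TAC and 6.34 in BCAA-free sham, and 7.03 in control TAC and 4.88 in control sham, with ratios of 0.07 (-0.13 to 0.28) and 0.45 (0.24 to 0.66). Ratios on the BCAA-free and the control diet were 0.11 and 0.30 for Cxcl11 and -0.15 and 0.03 for Cxcl9, and the counting interval of Cxcl9 included 0 on both diets.

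Within the CXCL12 axis the receptors differed. Cxcr4, the G protein-coupled receptor of CXCL12, had 10.8 in BCAA-free TAC and 8.06 in BCAA-free sham, and 13.8 in control TAC and 8.33 in control sham. Both TAC libraries stood above both sham libraries, with ratios of 0.38 (0.19 to 0.57) on the BCAA-free diet and 0.67 (0.49 to 0.85) on the control diet. Cxcr7, the atypical receptor that takes up CXCL12, had 12.8 in BCAA-free TAC and 15.7 in BCAA-free sham, and 13.4 in control TAC and 17.6 in control sham, with ratios of -0.27 (-0.39 to -0.16) and -0.37 (-0.48 to -0.26). On the control diet Cxcr7 was the lowest of all members. Cxcl12, a chemokine of stromal and endothelial cells, had 7.84 in BCAA-free TAC and 7.96 in BCAA-free sham, and 7.13 in control TAC and 9.15 in control sham. Cxcl12 was highest in control sham and lowest in control TAC, and the ratio was -0.02 (-0.17 to 0.13) on the BCAA-free diet and -0.32 (-0.47 to -0.17) on the control diet.

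**Figure D3:**
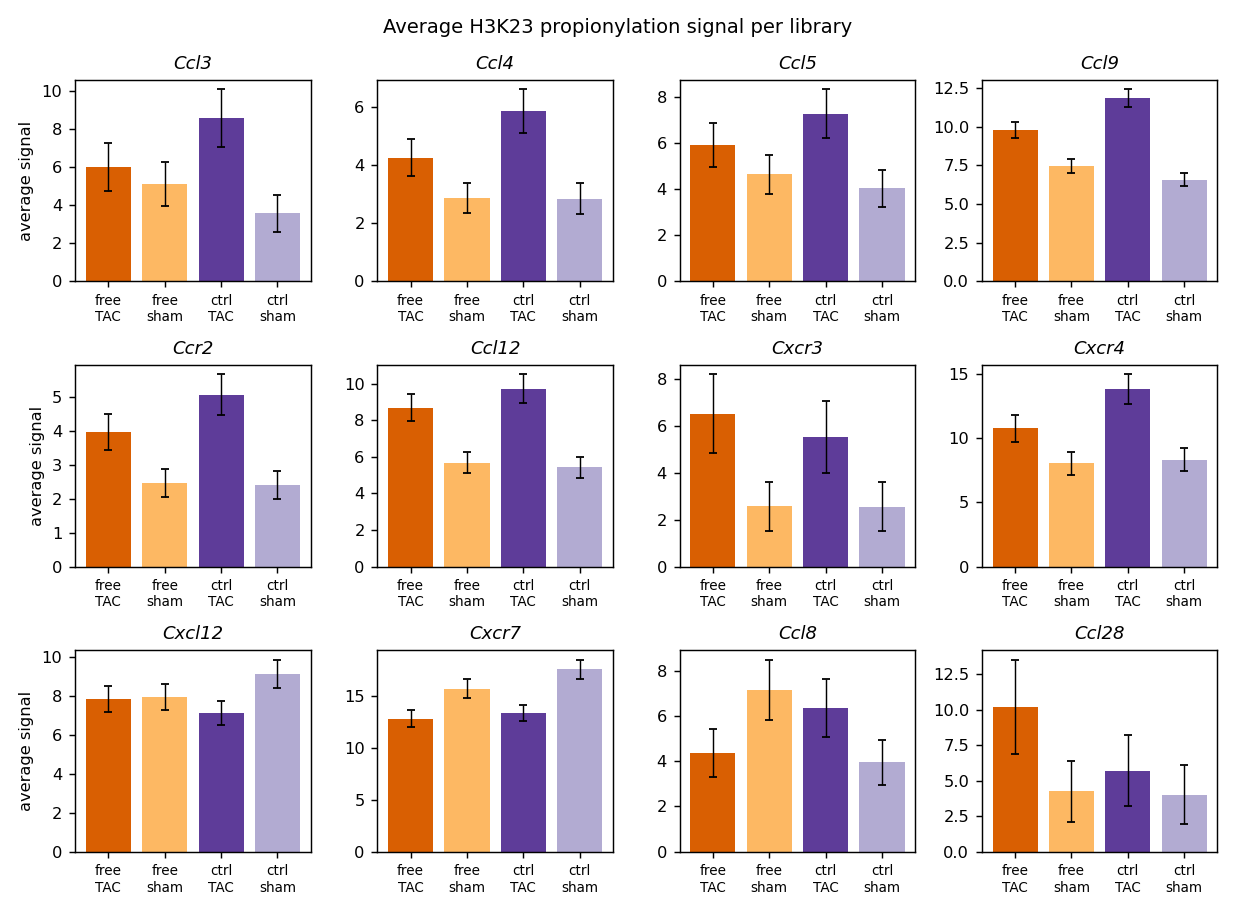
Average H3K23 propionylation signal (vertical axis, from 0) of 12 member regions in the 4 libraries (free, BCAA-free diet; ctrl, control diet); bars are the value of 1 library and error bars 95% counting intervals from estimated tags. Ccl3, Ccl4, Ccl5, Ccl9, Ccl12, Ccr2, Cxcr3 and Cxcr4 are higher in both TAC libraries than in both sham libraries, Cxcr7 is lower, and Ccl8 is highest in BCAA-free sham.

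The transmembrane chemokines CX3CL1 and CXCL16 are shed from the surface of endothelial and myeloid cells. Their genes and those of their receptors stayed short of 1.5-fold in the regions closest to the start. Cx3cr1, a receptor of resident macrophages and patrolling monocytes, had 6.23 in BCAA-free TAC and 4.28 in BCAA-free sham, and 6.27 in control TAC and 4.79 in control sham. Its ratios were 0.45 (0.23 to 0.68) on the BCAA-free diet and 0.33 (0.10 to 0.55) on the control diet. Further regions that list Cx3cr1 had 0.11 and 0.51 on the BCAA-free diet and 0.74 and 0.79 on the control diet. Ratios of Cx3cl1 were 0.21 and 0.19, and those of Cxcl16, in a region that also lists the arrestin gene Arrb2, 0.30 and 0.42. Cxcr6, the CXCL16 receptor of T and NKT cells, had 5.78 in BCAA-free TAC and 5.12 in BCAA-free sham, and 4.70 in control TAC and 5.83 in control sham. Control TAC was its lowest library in this region, with ratios of 0.15 (-0.07 to 0.36) and -0.26 (-0.48 to -0.04). Another region that lists Cxcr6, downstream of the start, had control TAC as its highest library at 5.28. The ratios there were 0.37 (0.10 to 0.64) on the BCAA-free diet and 0.31 (0.05 to 0.57) on the control diet.

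Of the genes for neutrophil attractants that signal through CXCR2, Cxcl1 had 8.26 in BCAA-free TAC and 9.51 in BCAA-free sham, and 6.68 in control TAC and 6.91 in control sham. In this region Cxcl1 was higher in both BCAA-free libraries than in both control libraries, and its ratios of TAC over sham were -0.18 (-0.38 to 0.01) and -0.04 (-0.26 to 0.17). A region upstream of Cxcl1 had TAC ratios of -0.08 and 0.21. The region of Cxcl2, which also lists Cxcl1, had control TAC as its highest library at 7.23. Cxcl2 had -0.03 on the BCAA-free and 0.38 on the control diet, and Cxcl5 0.21 and 0.25. Ccl17 and Ccl22, which attract T cells through CCR4, had 0.35 and 0.62 on the BCAA-free diet and 0.46 and 0.49 on the control diet, so that Ccl22 passed 1.5-fold on the BCAA-free diet. The Ccl22 region had 5.86 in BCAA-free TAC and 3.46 in BCAA-free sham, and 5.78 in control TAC and 3.84 in control sham. Ccl1, a CCR8 ligand, had 11.4 in BCAA-free TAC and 14.8 in BCAA-free sham, and 10.6 in control TAC and 9.06 in control sham. The Ccl1 ratio was -0.35 (-0.52 to -0.19) on the BCAA-free diet, second lowest of the members there, and 0.21 (0.02 to 0.40) on the control diet.

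Among eotaxin genes, Ccl24 and Ccl26 shared ratios of -0.03 (-0.36 to 0.30) on the BCAA-free and 0.42 (0.06 to 0.78) on the control diet, and Ccr3, the eotaxin receptor of eosinophils, had 0.14 and 0.49. Ccr6, a receptor of Th17 and B cells, was at the threshold, with 6.55 in BCAA-free TAC and 4.01 in BCAA-free sham, and 7.60 in control TAC and 4.76 in control sham. The Ccr6 ratio of 0.59 (0.40 to 0.79) on the BCAA-free diet passed 1.5-fold and that of 0.58 (0.40 to 0.76) on the control diet did not. Ccl28, an epithelial chemokine, had 10.2 in BCAA-free TAC and 4.24 in BCAA-free sham, and 5.71 in control TAC and 4.00 in control sham. BCAA-free TAC stood alone for Ccl28, but the region of 800 bases had 14.3 to 36.4 estimated tags and lay inside the gene 8180 bases from the start, with ratios of 1.10 (0.37 to 1.82) and 0.42 (-0.38 to 1.23).

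Other receptors of lymphocyte homing had ratios between -0.22 and 0.17, and some of their counting intervals excluded 0. On the BCAA-free and the control diet, Ccr7 had 0.01 and 0.17, Cxcr5 0.02 and 0.05, and the gut-homing receptor gene Ccr9 -0.18 and 0.17. Ccr10 had -0.22 and -0.05, and the dendritic cell receptor gene Xcr1 -0.18 and -0.09. The regions of Ccr10 and Xcr1 hold CpG islands and other genes. The constitutively made Cxcl14 had 0.13 and -0.24, Cxcl17, in a region of 6 genes, -0.30 and -0.18, Ccl25 0.09 and 0.02, and the skin chemokine gene Ccl27a, which has a near-identical copy that could share reads, -0.13 and -0.14. By class, 2 of 18 CC ligands, 1 of 8 CC receptors and 1 of 4 CXC receptors were higher past 1.5-fold on the BCAA-free diet (against 0.850% of all genes), and 5, 2 and 2 on the control diet (against 2.82%). None of the 10 CXC ligands passed it on either diet, with medians of 0.03 and 0.14.

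Peak height, the other deposited signal, gave another direction for some of these members. On the BCAA-free diet the peak-height ratio of TAC over sham was 0.00 for Ccl9, -0.10 for Ccl6, -0.17 for Cxcl16, 0.54 for Xcr1, 0.43 for Ccr9 and -0.43 for Cxcr6. It was also -0.30 for Cxcl14, -0.13 for Cxcl10, -0.17 for Cxcr5 and 0.06 for Cxcl12. On the control diet it was 0.50 for Xcr1, 0.25 for Cxcl17, 0.11 for Cxcl14, -0.22 for Cxcr5, -0.13 for Cxcl9 and 0.00 for Cxcr6.

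Peak calls were not the same in the 4 libraries. The authors' table has a peak in the region of 41 of 44 members in BCAA-free TAC, 33 in BCAA-free sham, 37 in control TAC and 29 in control sham. Of all genes, 16031, 16089, 15976 and 15680 of 17640 had a peak in the region in the same order of libraries. All 4 libraries had a peak at 28 members (63.6%), against 81.3% of all genes. The regions of Ccl3, Ccl5, Ccl22 and Ccr2 had a peak in both TAC libraries and in neither sham library. Ccl4 and Ccr3 had one only in control TAC, and Ccr1, Cxcr3, Ccl28 and Cxcl14 only in BCAA-free TAC. The calls come from the same libraries as the ratios and are no separate measurement. Every member region had a call in at least 1 library. Regions called only in TAC libraries may thus be listed because of their TAC signal, which limits what their higher ratios in TAC can show.

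**Figure D4:**
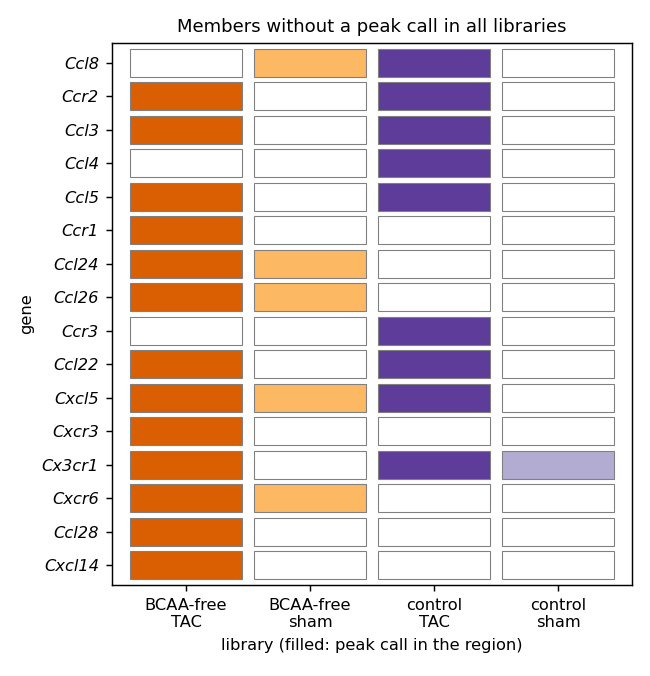
Peak calls (filled cells) in the 4 libraries (columns) for the 16 members (rows) whose region did not have a call in every library. Only Cx3cr1 has a call in control sham, whereas 13 of the 16 have one in BCAA-free TAC.

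In 19 members the table lists more than 1 region. Of the 58 regions that list any member, the BCAA-free diet had 4 higher and 2 lower past 1.5-fold in TAC (against 1.41% and 2.37% of all regions), with a median of 0.13. The control diet had 14 higher and 0 lower (against 4.36% and 5.31%), with a median of 0.36. The next region downstream of Ccl3, of 3000 bases, had 5.97 in BCAA-free TAC and 5.80 in BCAA-free sham, and 10.6 in control TAC and 5.86 in control sham, so that here control TAC stood alone with ratios of 0.04 and 0.76. A region of 7400 bases downstream of the start of Ccr3 had ratios of 0.30 and 0.78, and a second region of Ccl5 0.58 and 0.60. For Ccl3, the region of highest signal among the 4 that list it had a ratio of 0.29 on the BCAA-free and 0.38 on the control diet.

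The next comparison was diet within each surgery. In TAC hearts, 1 member was higher past 1.5-fold with the BCAA-free diet (2.27%, against 0.402% of all genes), namely Ccl28 at 0.74 (0.06 to 1.42), and 0 were lower (against 0.488%). The median of the members was -0.06 (all genes -0.04). The lowest were Ccl8 at -0.46 (-0.83 to -0.08), Ccl3 at -0.45 (-0.80 to -0.10), Ccl17 at -0.41 (-0.55 to -0.27), Ccl4 at -0.39 (-0.62 to -0.15) and Ccr3 at -0.37 (-0.68 to -0.06). After Ccl28 the highest were Cxcl14 at 0.39 (-0.03 to 0.81), Cxcl5 at 0.28, Cxcl1 at 0.27 and Cxcr6 at 0.25. With peak height, Cxcl14 had -0.11, against 0.42 for Cxcl5, 0.31 for Cxcl1 and 0.15 for Cxcr6.

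In sham hearts, 4 members were higher on the BCAA-free diet past 1.5-fold (9.09%, against 1.03% of all genes) and 0 were lower (against 0.488%). These were Ccl8 at 0.72 (0.34 to 1.10), Ccl1 at 0.65 (0.48 to 0.83) and Ccl24 with Ccl26 at 0.59 (0.23 to 0.95), all ligand genes, and 2 of the 4 passed with libraries scaled to the same median. The 15 receptor genes had ratios of -0.20 to 0.20. Ccl3 had 0.42 (0.01 to 0.84), the shared region of Ccl2, Ccl7 and Ccl11 0.42 (0.33 to 0.50), Cxcl1 0.41 (0.21 to 0.61) and Cxcl10 0.32 (0.10 to 0.54). Ccl17 at -0.30 (-0.46 to -0.14), Ccr6 at -0.20, Cxcl12 at -0.18, Cxcr6 at -0.16 and Cxcr7 at -0.15 were the lowest. With peak height, Ccr6 had 0.18, Cxcr6 0.58 and Cxcr7 0.17, while Ccl17 had -0.26 and Cxcl12 -0.49. By average signal, the median was 0.08 for the members and 0.04 for all genes. Markers of fibroblasts were higher in the same comparison, with a median of 0.58, 4 of 8 past 1.5-fold and a summed signal of 77.2 in BCAA-free sham and 52.0 in control sham. Among them Dpt had 0.73, Dcn 0.66 and Tcf21 0.62, and their part in the member ratios was not tested. In TAC hearts, with each region counted once, the diet medians were 0.18 for fibroblast and -0.23 for macrophage markers.

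**Figure D5:**
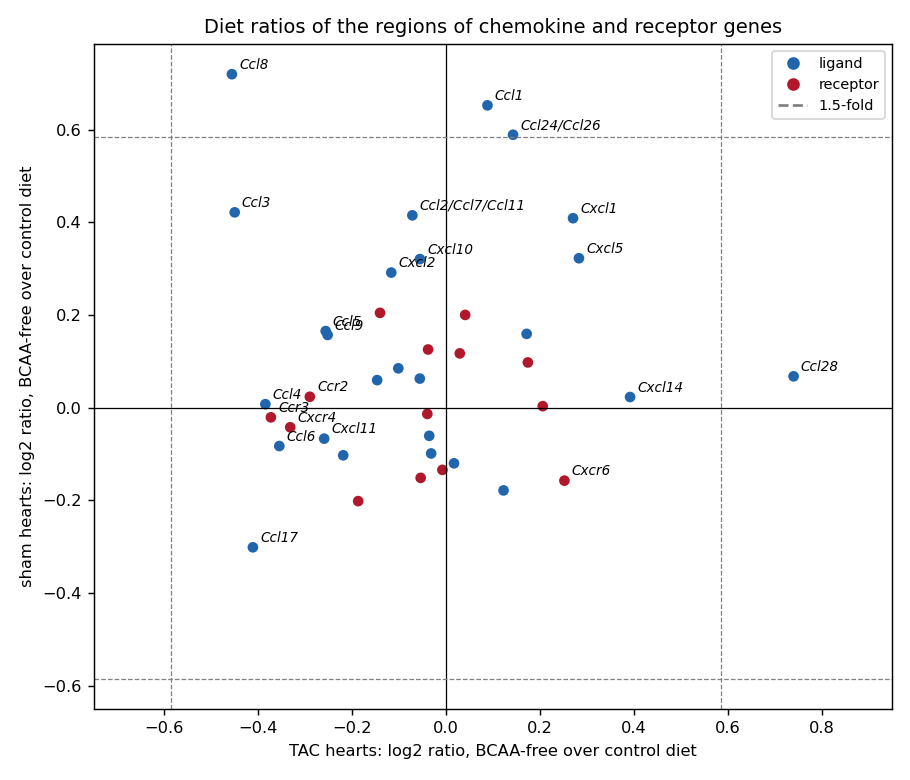
Log2 ratio of the BCAA-free over the control diet in TAC hearts (horizontal axis) and in sham hearts (vertical axis) for 40 of the 41 regions nearest to the members; blue points are ligands, red points receptors, and dashed lines mark 1.5-fold. Ccl8 and Ccl3 lie at the upper left, with -0.46 and -0.45 in TAC and 0.72 and 0.42 in sham hearts, and Ccl28 alone at the right.

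The difference of the TAC ratios, BCAA-free diet minus control diet, had a median of -0.18 over the members (all genes -0.07). Its counting interval lay below 0 for 16 members (against 15.5% of all genes) and above 0 for 2, Cxcl12 and Cxcr6 (against 5.73%). Among the 16 are Ccl2, Ccl7 and Ccl11, which share a single region and so a single value. The differences were -1.18 (-1.71 to -0.64) for Ccl8, -0.87 (-1.41 to -0.33) for Ccl3, -0.56 (-0.82 to -0.31) for Ccl1 and -0.41 (-0.56 to -0.26) for Ccl9, against 0.30 (0.08 to 0.52) for Cxcl12 and 0.41 (0.10 to 0.71) for Cxcr6. With peak height the Cxcr6 difference turned to -0.43, and that of Cxcl12 was 0.70. In the other region that lists Cxcr6 the difference was 0.06 (-0.31 to 0.43). Each difference equals the diet ratio in TAC hearts minus the diet ratio in sham hearts. The differences restate the diet ratios of the same libraries, so they are not separate evidence. Members above the median of all genes in TAC on both diets numbered 26 of 44 (59.1%), against 33.0% of all genes, and 7 were below it on both.

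Genes that carry the chemokine signal into the cell were taken from a list. Of 24 signal transducer genes (G proteins, PI3 kinase gamma, arrestins, receptor kinases and Rac activators), 1 was higher and 0 lower past 1.5-fold on the BCAA-free diet with a median of 0.19, and 6 were higher and 0 lower on the control diet with a median of 0.39. Pik3cg, the kinase subunit activated by chemokine receptors in leukocytes, had 0.36 and 0.85, Dock2, which activates Rac for leukocyte migration, 0.39 and 0.74, and Was, an actin regulator of blood cells, 0.70 and 0.64. The 10 NF-kB genes had medians of 0.01 and 0.08 with 0 past 1.5-fold on either diet, and Ikbke had 0.33 and 0.36 and Tnfaip3 0.04 and 0.32. Of 10 leukocyte adhesion genes with a region, 0 on the BCAA-free and 3 on the control diet were higher past 1.5-fold. The shares of all genes were 0.850% and 2.82%, while the medians of the adhesion genes were 0.13 and 0.06. Among them Itga4 had 0.43 and 0.75 and Selplg 0.43 and 0.64. Chemoattractants and receptors that carry other symbols had medians of 0.18 and 0.56, with 0 and 3 of 10 higher (against 0.850% and 2.82% of all genes). Of these, the complement receptor gene C5ar1 had 0.17 and 0.69 and its relative C5ar2 0.23 and 0.67.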

How the data were processed

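H3K23 propionylation was measured by ChIP-seq in 4 libraries of pooled mouse hearts, grouped by the treatment labels, 1 per group. The submitters' processing notes name BWA, MACS2 and mm10 and give no version. The authors deposited 1 table of 29210 merged regions. Per the file headers it holds an average signal, a peak height (also a signal) and a peak call for each library, and for library pairs log2 ratios and a larger tag number. The deposited log2 ratios equalled the log2 quotient of the average signals to within 4.44e-16. The deposited tag number was the average signal multiplied by region length (end minus start) over 224, and this relation gave estimated tags for each library, from which the counting intervals were computed on the scale of the ratio. The scaling of the libraries was not stated in the sources.

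Ratios were log2((A + 1)/(B + 1)), a pseudocount of 1 that understates changes of low signals, with no filter, and 1.5-fold was a rule of size. Depth is known only through the estimated tags, and the median counting error (SE) of a ratio over all regions was 0.125 to 0.126. The named genes were the 8 highest and 8 lowest members of each TAC comparison, the 5 highest and 5 lowest of each diet comparison, members within 2500 bases of the start, and Cxcl12, Cxcr4, Cxcr7 (Ackr3), Ccl2, Ccr2, Cx3cl1, Cx3cr1, Cxcl16 and Cxcr6, with 2 genes per pathway list. For 1 member the values are not reported here. Further members, regions and list genes were named after their values were seen. Members and lists were chosen with earlier results of these data known, and the comparison with genes lacking a CpG island was added after the data were seen. Alternatives covered the pseudocount, peak height, scaling, filters, choice of region and threshold. Promoter windows came from RefSeq (GRCm38.p6). The ratio step was tested on simulated data. Python 3.11.15, numpy 2.4.6, pandas 2.3.3 and matplotlib 3.10.9 were used.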

Additional observations from a re-analysis of the deposited data

Results flagged for a closer look

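The TAC over sham ratios of 6 members pointed in opposite directions on the 2 diets, each beyond its counting interval. The difference between diets was not tested, with 1 library per group. Ccl8 had -0.60 on the BCAA-free diet and 0.57 on the control diet. Ccl1 had -0.35 on the BCAA-free diet and 0.21 on the control diet. Ccl2, Ccl7 and Ccl11, which share 1 region, had -0.14 on the BCAA-free diet and 0.35 on the control diet. Ccr9 had -0.18 on the BCAA-free diet and 0.17 on the control diet. In all 4 regions BCAA-free sham was the highest library and control sham the lowest. The same highest and lowest libraries were seen in the fibroblast markers Col3a1, Dcn, Dpt, Lum, Pdgfra and Tcf21. Dcn had 12.6 in BCAA-free TAC and 14.0 in BCAA-free sham, and 9.76 in control TAC and 8.45 in control sham. Of the other listed fibroblast markers, Col1a1 was highest in BCAA-free TAC (10.1) and Postn in control TAC (7.96). BCAA-free TAC lay above control TAC in Ccl1 and in the markers named first, but below it in the regions of Ccl8, Ccl2 and Ccr9. The part of fibroblast makeup in these ratios was not tested. The counting intervals of Ccr9 end close to 0, at -0.01 on the BCAA-free and 0.00 on the control diet. With peak height Ccr9 had 0.43 and 0.27, the same direction on both diets, and with libraries scaled to the same median it had -0.12 and 0.16.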

How the results depend on the processing

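Of 125 values under alternatives, 3 medians turned direction, and 29 values moved, which means a count by over 1.5 times or a median outside the 95% binomial interval of the reported median over members. The cause was not tested. The other 93 stayed within these limits, which are wide. The median for TAC over sham on the BCAA-free diet, 0.12 as reported, was 0.00 with peak height and 0.024 among members of high signal, and the members higher on the control diet, 9 as reported, were 13 with no pseudocount and 12 in each gene's strongest region. With peak height in place of average signal, members higher in TAC numbered 8 on the BCAA-free diet and 14 on the control diet, 1 was lower on the control diet, 7 were higher on the BCAA-free diet in sham and 2 lower in TAC hearts. The medians were then 0.51 for TAC over sham on the control diet, 0.21 for diet in sham and -0.37 for the difference of the TAC ratios. Among the 17 members of mean signal at or above the median of all regions, 0 were higher and 0 lower in TAC on the BCAA-free diet and 3 higher on the control diet, with a median of 0.19 there. In the same 17, 0 were higher on the BCAA-free diet in TAC hearts and 1 in sham, where the median turned to -0.014 from 0.08. Among the 13 within 2500 bases of the start, the counts higher in TAC were 1 and 4 on the BCAA-free and control diets, those higher on the BCAA-free diet were 0 in TAC and 2 in sham, and the diet median in TAC turned to 0.14 from -0.06. Among the 19 that were the only gene of their region, 5 were higher in TAC on the control diet and 2 on the BCAA-free diet in sham, and the median difference turned to 0.014 from -0.18. At 2-fold, 2 and 1 were higher in TAC on the BCAA-free and control diets, 0 were lower on the BCAA-free diet, and 0 were higher by diet in TAC or sham. With libraries scaled to the same median (shifts of -0.06 to 0.04), 0 were lower in TAC on the BCAA-free diet and 2 were higher by diet in sham. In the strongest regions 0 were lower in TAC on the BCAA-free diet and 1 was lower by diet in TAC. No paired analysis was possible because each group has 1 library and no replicate numbers. Regions of few estimated tags, such as those of Ccl28, Ccr1 and Cxcr3, carry wide counting intervals, and no interval covers variation between pools of hearts.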

Other observations

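Of the other atypical chemokine receptors, 2 are listed under older symbols that the rule did not take. Ccbp2 (Ackr2), which scavenges CC chemokines, had an average signal of 8.48 in BCAA-free TAC and 9.92 in BCAA-free sham, and of 8.64 in control TAC and 8.36 in control sham, with TAC ratios of -0.20 on the BCAA-free and 0.04 on the control diet. Ccrl1 (Ackr4) had 7.71 in BCAA-free TAC and 6.75 in BCAA-free sham, and 6.51 in control TAC and 5.50 in control sham, with ratios of 0.17 and 0.21, and its intervals included 0.

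The platelet chemokine genes Pf4 and Ppbp, whose nearest region is 1 and the same, had ratios of 0.36 on the BCAA-free and 0.56 on the control diet. The Cx3cr1 gene has 2 further regions downstream of its start, of 16400 and 4600 bases. The longer had 5.18 in BCAA-free TAC and 4.74 in BCAA-free sham, and 7.40 in control TAC and 4.03 in control sham. The shorter had 4.79 in BCAA-free TAC and 3.07 in BCAA-free sham, and 9.54 in control TAC and 5.08 in control sham. Their TAC ratios on the control diet, 0.74 and 0.79, were above the 0.33 of the region at the start.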
